A study of Mus musculus with 12 samples.

Results

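Glutathione S-transferases join the tripeptide glutathione to reactive, often toxic molecules, and the conjugates are then exported from the cell and broken down. The cytosolic enzymes fall into classes such as alpha, mu, pi, theta and omega, the kappa enzyme sits in mitochondria and peroxisomes, and the microsomal ones are membrane proteins of a separate family. In brain, mu-class enzymes are known mainly from astrocytes, and the pi-class protein is widely used as a marker of mature oligodendrocytes, the cells that make myelin. The mouse has several pi-class genes side by side, among them Gstp1 and Gstp2, whose products are nearly alike.

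The genes described here are 10 named transferases: Gstp1, Gstp2 and Gstp3 (pi class), Gstm1 and Gstm5 (mu), Gsta4 (alpha), Gstt1 (theta), Gsto1 (omega), Gstk1 (kappa) and Mgst1 (microsomal). Of these, 9 were among the 19268 genes measured, found by Ensembl identifier, and the expression of Gstp3 is not analysed here. The list was drawn up with the KO and WT difference of Gstp2 at P60 already seen, so that difference, and the P60 genotype comparison of the other members, are given as values with no test. Age differences of Gstp2 use the same P60 libraries and are treated in the same way.

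RNA was sequenced from forebrain without the olfactory bulb of male C57BL/6J mice. The mice were wild-type (WT) or carried, on both copies of Shank3, a deletion of exons inside the gene (KO), and the labels name no other allele or treatment. Shank3 encodes a scaffold protein of excitatory synapses. At postnatal day 25 (P25, juvenile) there were 3 libraries of KO mice (P25-KO) and 3 of WT mice (P25-WT), and at postnatal day 60 (P60, adult) again 3 of each (P60-KO and P60-WT), a mouse per library. The tissue is a mixture of cell types, so each value is an average over them.

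The values are normalized counts, on the scale of read counts but divided by the authors' library- and gene-specific factors. They are not whole reads, so the depth behind a value is unknown, and precision rests on the spread of 3 libraries in a group. Shank3 was between 4535 and 5729 in the 6 KO libraries and between 8936 and 11683 in the 6 WT libraries, so every library stood on the side its label gives. All 7 forebrain markers were present in every library, and of the hindbrain genes, Hoxb5 and Hoxb3 were listed at 0 in at least 1 library, while En1 was between 24.6 and 55.3 normalized counts. P25-WT replicate 2 stood apart among the juvenile libraries for most members, as described below, and the members' P25 differences are given with and without it.

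Gstp1 and Gstp2 are neighbours on the minus strand of chromosome 19 in the mouse assembly GRCm38. Gstp1 (ENSMUSG00000060803) lies at chr19:4035407-4037985 and Gstp2 (ENSMUSG00000038155) at chr19:4040285-4046023, with 2.3 kb between them. Their coding sequences are each 633 bases long and differ at 12 positions, an identity of 98.1%, and the longest run without a difference is 303 bases. Against Gstp3 the identity is only 72.2% for Gstp1 and 72.6% for Gstp2. Of the 12 differences, 6 lie in the first 60 coding bases, which are shown because they are the coding stretch with the most differences. They are taken from GENCODE transcripts and are written 5′ to 3′ on the minus strand. In both genes they span introns (chr19:4037374-4037863 and chr19:4041668-4042165), and the differing bases are in capitals.
Gstp1: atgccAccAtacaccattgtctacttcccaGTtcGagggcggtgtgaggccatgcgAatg
Gstp2: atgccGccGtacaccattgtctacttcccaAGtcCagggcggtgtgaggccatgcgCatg

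Reads from the pair can be told apart only where the transcripts differ. When transcripts were read as overlapping 31-base words, the length in which Salmon indexes a transcriptome by default, 54.8% of the words of Gstp2 were also in Gstp1, and 38.5% of the words of Gstp1 were also in Gstp2. A pseudogene, Gstp-ps, held 40.6% of the words of Gstp2 and 24.7% of those of Gstp1. In the main Gstp2 transcript of 797 bases, 168 of 767 words (21.9%) were in no other gene. All of these began at or before base 389, and from base 429 to the 3′ end every word was also in Gstp1. The main Gstp1 transcript of 821 bases had 257 of 791 words (32.5%) to itself. The other members were far more distinct, except Gstm1, which shared 28.8% of its words with other genes, chiefly Gstm2-ps1 and Gstm3. The remaining 6 measured members shared less than 1% of theirs. For this reason the values of Gstp1 and Gstp2 are given singly and as their sum. The sum is not free of how reads were divided, since each gene was normalized by its own factors and reads can also be given to Gstp-ps.

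**Figure D1:**
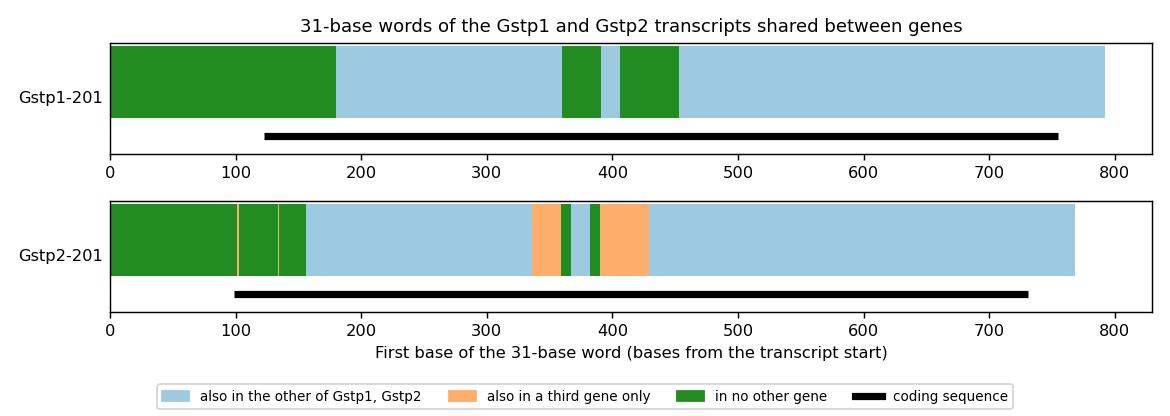
Words of 31 bases along the main transcripts of Gstp1 (791 words) and Gstp2 (767 words), placed by their first base in bases from the transcript start and coloured by whether they also occur in the partner gene, in another gene only, or in no other gene, with the coding sequence as a black bar. The words found in Gstp2 alone (168) start at or before base 389, and both transcripts are shared over their 3′ parts.

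The start regions of the pair were also alike. RefSeq promoter windows of the same assembly (250 bases before to 50 after the start site) matched 9 of the 10 members, with 11 windows, and the windows of Gstp1 and Gstp2 were identical at 76.6% of 316 aligned columns. The letters TGAGTCA, a motif bound by AP-1 factors, occurred on either strand in 5.20% of all 32851 promoter windows and in 3 of the 11 windows of members, those of Gstp1, Gstp2 and Gstm5. The core of the antioxidant response element, TGACNNNGC, which Nrf2 binds, was in 12.4% of all windows, in that of Gstm5 and in 1 of those of Mgst1. In the Gstm5 window, which held both motifs, the matches did not overlap, and a match is a description of letters only. The 70 bases around the match are shown for the pair (chr19:4037941-4038010 and chr19:4042265-4042334, minus strand), with TGAGTCA in capitals, to show how far the neighbourhood of the motif is shared.
Gstp1: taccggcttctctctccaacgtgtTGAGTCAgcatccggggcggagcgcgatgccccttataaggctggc
Gstp2: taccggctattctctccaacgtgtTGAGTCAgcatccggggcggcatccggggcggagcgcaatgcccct
The first base of the match was at position -74 from the start site in Gstp1 and at -89 in Gstp2.

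The 9 measured members covered a wide range of levels. Per kilobase of exon, the mean over 12 libraries was 2717 normalized counts for Gstm1 (ENSMUSG00000058135, chr3:108012255-108017973, minus strand) and 2279 for Gstm5 (ENSMUSG00000004032, chr3:107895821-107898686, plus strand). Both are mu-class enzymes, the class that conjugates many epoxides and quinones. Gstp1 followed with 2098 per kilobase. These were the most abundant of the 9 members, and their order was not firm, since Gstm5 exceeded Gstp1 in 10 of 12 libraries and their ranges overlapped, as did those of Gstm1 and Gstm5.

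Gsta4 (ENSMUSG00000032348, chr9:78182774-78209349, plus strand), which detoxifies 4-hydroxynonenal, a product of lipid peroxidation, had 632 normalized counts per kilobase. Gsto1 (ENSMUSG00000025068, chr19:47854970-47864790, plus strand), an omega enzyme with thiol transferase and dehydroascorbate reductase activity, had 356. Both stood clear of their neighbours in the order, with no overlap of ranges from Gstp1 down to Gstt1.

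Gstt1 (ENSMUSG00000001663, chr10:75783813-75798584, minus strand), a theta enzyme that acts on small halogenated compounds, had 132 normalized counts per kilobase, and Gstk1 (ENSMUSG00000029864, chr6:42245935-42250447, plus strand) had 127. Gstt1 was above Gstk1 in 8 of 12 libraries, so their order was not settled. Mgst1 (ENSMUSG00000008540, chr6:138140316-138156755, plus strand), a membrane-bound transferase and peroxidase, had 87.8. Gstp2 was the lowest member with 24.0. Its level over groups was 19.1 per kilobase in P25-KO, 20.9 in P25-WT, 51.8 in P60-KO and 4.25 in P60-WT, in each case a small fraction of that of Gstp1.

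Gstp2, the gene whose P60 values chose the list, had normalized counts of 68.2, 31.7 and 73.0 in the P60-KO libraries and of 6.4, 2.6 and 5.1 in the P60-WT libraries. The P25-KO libraries had 21.1, 35.2 and 7.3, and the P25-WT libraries 35.7, 19.4 and 14.8. All adult KO values were above all adult WT values, whereas the juvenile groups overlapped. The lowest P60-KO value, in replicate 2, lay within the range of the juvenile libraries of both genotypes.

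The group means of Gstp2 were 57.6 ± 22.6 in P60-KO, 4.73 ± 1.94 in P60-WT, 21.2 ± 14.0 in P25-KO and 23.3 ± 11.0 normalized counts in P25-WT (SD, n = 3). The P60 means stood in a ratio of 12.2, and the difference was 3.33 ± 0.43 (SE) as log2(value + 1), a scale that compresses the change of a gene this low. The P60 mean was 2.72 times the P25 mean in KO and 0.203 of it in WT, differences of 1.55 ± 0.51 and -2.05 ± 0.46 (SE) in log2(value + 1). Without P25-KO replicate 3 the KO difference was 0.96, and it was between 1.34 and 2.02 when any other of its libraries was left out. The P60-KO libraries overlapped the P25-KO ones, and the P60-WT libraries lay below all P25-WT ones. These are descriptions of the contrast the list was chosen on. As a share of the Gstp1 and Gstp2 sum, Gstp2 made up 1.02% to 2.47% in P60-KO libraries, 0.0889% to 0.207% in P60-WT libraries and 0.192% to 1.16% in juvenile libraries.

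Gstp1 had normalized counts of 2995.7, 3088.9 and 2879.6 in the P60-KO libraries and of 3097.5, 2938.5 and 2865.1 in the P60-WT libraries. The P25-KO libraries had 3420.4, 2995.9 and 3813.9, and the P25-WT libraries 3488.2, 4305.3 and 3075.6. Unlike Gstp2, it overlapped between genotypes at both ages, and the adult libraries were tightly grouped while the juvenile ones spread widely. The means were 2988 ± 105 in P60-KO, 2967 ± 119 in P60-WT, 3410 ± 409 in P25-KO and 3623 ± 626 in P25-WT (SD, n = 3). Because Gstp2 is so low, the sum of the pair followed Gstp1, and its P60-KO mean was 1.025 times its P60-WT mean.

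**Figure D2:**
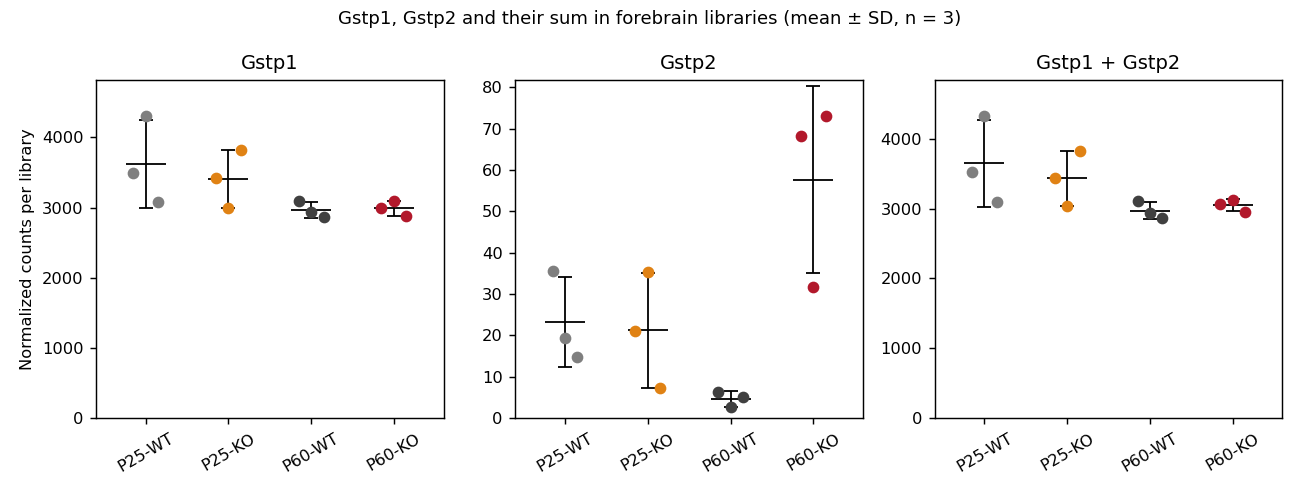
Normalized counts of Gstp1, Gstp2 and their sum in each of the 12 libraries, by group on the horizontal axis, with a point per library, the mean as a long line and the SD as a bar (n = 3). Gstp2 in P60-KO (31.7 to 73.0) lies above P60-WT (2.6 to 6.4), while Gstp1 and the sum overlap between genotypes at both ages.

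At P60 the other 8 members showed no separation of KO from WT. None of the 8 had groups that did not overlap, where 7.79% of all 17610 genes had such groups. Their KO to WT ratios of means were between 0.946 and 1.06, and their differences between -0.08 and 0.08 on the log2(value + 1) scale. Gstp2 was the single member with separated adult groups, and the list was chosen on that separation.

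The genes around Gstp2 were looked at in the same way. None of the 10 measured genes nearest to it, all within 58.6 kb on chromosome 19, had P60-KO values apart from P60-WT values. Their log2(value + 1) differences at P60 ranged from -0.42 for Acy3, an aminoacylase, to 0.21 for Doc2g, with AC133523.4 under the minimum mean of 10 and untested. Gstp1 itself, one of the 10, is the closest.

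At P25 the KO and WT groups were compared with a test for all 9 members, since the list was not chosen on this contrast. No member was a differentially expressed gene (DEG, adjusted p under 0.05), with a limma Benjamini-Hochberg adjusted p = 1.0 for each, where 0.00571% of the 17515 genes tested were, namely Shank3 alone. None had an unadjusted p under 0.05, which 238 of all genes had. All 9 members also overlapped between the groups, where 4.76% of all genes did not. The differences on the log2(value + 1) scale were all negative, with a median of -0.15 beside -0.01 for all genes, but without P25-WT replicate 2 the median was -8.8e-06, with 4 positive and 5 negative.

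With all 6 libraries, the largest of these juvenile differences was that of Mgst1, with -0.45 ± 0.24 (SE). Its values were 108.3, 144.7 and 165.5 in P25-KO and 164.9, 265.9 and 150.0 in P25-WT, so that replicate 2 of P25-WT was far above the rest. Gstp2 had -0.28 ± 0.54, Gstt1 -0.24 ± 0.16, Gstm5 -0.16 ± 0.19 and Gsta4 -0.15 ± 0.11. The differences of Gsto1, Gstp1, Gstm1 and Gstk1 were between -0.08 and -0.06.

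P25-WT replicate 2 was the highest of the 6 juvenile libraries for 8 of the 9 members, all but Gstp2, and for 30.9% of all genes. Its value relative to the mean of the other 5 juvenile libraries was 1.81 for Mgst1, 1.65 for Gstm5, 1.45 for Gstk1, 1.36 for Gstt1, 1.28 for Gstp1, 1.27 for Gsta4, 1.24 for Gsto1, 1.16 for Gstm1 and 0.851 for Gstp2. The abundant Gstm5 shows it plainly, with 4658.9 normalized counts in that library, 2917.2 and 2487.0 in the other P25-WT libraries and 2778.6 to 3012.1 in P25-KO. Without that library the juvenile differences of Gstp1 (0.05), Gstm5 (0.11), Gstk1 (0.15) and Gsto1 (0.03) were positive, and no member was a DEG. Those of Mgst1 (-0.19), Gstt1 (-0.11) and Gsta4 (-0.047) were then smaller, that of Gstm1 was -8.8e-06, and that of Gstp2 (-0.36) was the furthest from 0. The same library had the highest summed level of 10 oligodendrocyte markers at P25 (522184 normalized counts, with 8 of the 10 markers highest there), while 2 of 10 astrocyte markers were highest in it. It also had the highest P25 sum of endothelial markers (5849) and of choroid plexus markers (14313), and the lowest of oligodendrocyte precursor markers (7339). The part of such a difference between libraries in the members' values was not tested.

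**Figure D3:**
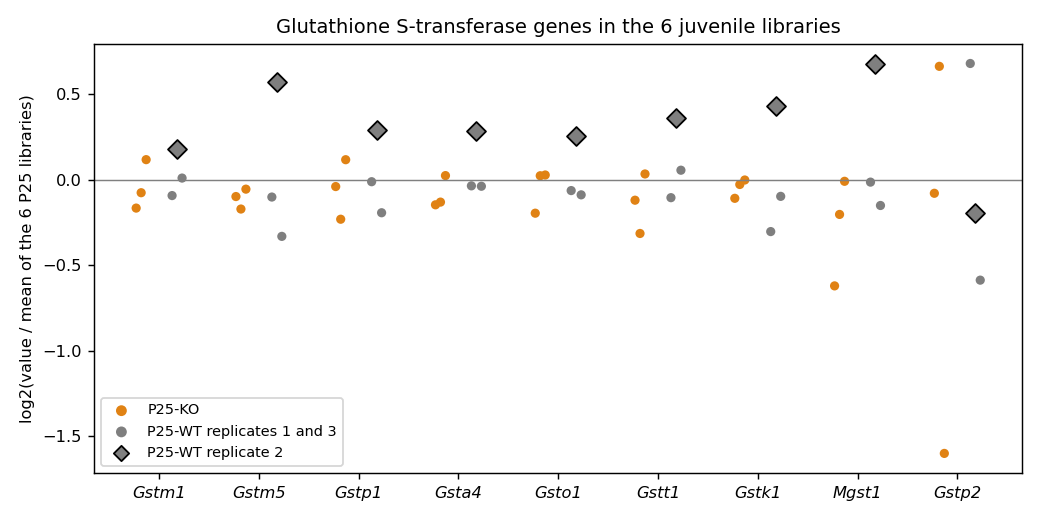
Each member's normalized counts in the 6 P25 libraries, as log2 of the value over the mean of those libraries, with P25-KO in orange, P25-WT replicates 1 and 3 in grey and P25-WT replicate 2 as a diamond. The diamond is the top point for 8 of 9 members, all but Gstp2.

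The age comparison asked whether the members differed between juvenile and adult forebrain. Over both genotypes and 12 libraries, 3 of the 8 members other than Gstp2 were DEGs, all lower at P60: Gsta4, Gsto1 and Gstp1. This was 37.5% of them, near the background, since 35.9% of the 17594 genes tested were DEGs (17.5% higher and 18.5% lower). The adult and juvenile libraries did not overlap for 2 of the 8, where 19.6% of all genes did not overlap. The members' median difference was -0.07, beside 0.00 for all genes. When libraries were brought to a common total, the 3071 genes higher and 3252 lower at P60 became 3874 and 2617.

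Gsta4 was lower at P60 in every library. Its P25 values were 839.3, 848.5 and 944.9 in KO and 906.4, 1131.2 and 904.9 in WT, and its P60 values were 689.0, 682.4 and 630.8 in KO and 673.3, 715.6 and 641.0 in WT. The difference was -0.46 ± 0.07 on the log2(value + 1) scale (SE, limma adjusted p = 0.00026), and it was -0.53 ± 0.11 within WT (adjusted p = 0.0274) and -0.39 ± 0.08 within KO (adjusted p = 0.00798). The highest adult value was below the lowest juvenile one.

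Gsto1 showed the same separation. Its P25 values were 717.7, 835.4 and 838.0 in KO and 786.7, 981.5 and 773.2 in WT, and its P60 values were 618.4, 646.1 and 591.8 in KO and 601.8, 649.8 and 594.7 in WT. The difference was -0.41 ± 0.07 (adjusted p = 0.000822), with -0.45 ± 0.11 within WT (adjusted p = 0.0439) and -0.36 ± 0.09 within KO (adjusted p = 0.0158). Among all genes tested, 10.8% had all adult libraries below all juvenile ones, and of the 8 members Gsta4 and Gsto1 did. Both calls over the 2 genotypes together held in each of the 20 alternative analyses.

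Gstp1 was lower at P60 by a smaller amount. The difference over both genotypes was -0.23 ± 0.08 (adjusted p = 0.0320), and the adult and juvenile libraries overlapped. Within WT it was -0.27 ± 0.12 (adjusted p = 0.156) and within KO -0.18 ± 0.08 (adjusted p = 0.137), neither past the threshold. The call held in 12 of 20 alternative analyses, with adjusted p between 0.00591 and 0.0861, and was lost when libraries were brought to a common total (0.0627) or the intensity trend was left out (0.0677). Of the 12 libraries, leaving out any of 6 also ended it: at P25, KO replicate 1 (0.0596) or 3 (0.0861), and at P60, KO replicate 1 (0.0559) or 3 (0.0700) and WT replicate 2 (0.0569) or 3 (0.0708).

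The sum of Gstp1 and Gstp2, which is mostly Gstp1, was also lower at P60. It differed by -0.22 on the log2 scale between the ages (two-sided exact permutation test within genotype, p = 0.030, smallest possible p = 0.005, 400 arrangements; p = 0.0625 with the replicate number as a block), and the adult level was 88.8% of the juvenile level in KO and 81.5% in WT. By the same exact test p was 0.05 when KO replicate 3 of either age was left out, and 0.06 when replicate 2 or 3 of P60-WT was. The log2 difference was -0.16 without P25-WT replicate 2, which had the highest sum (4324.7). It was -0.18 without P25-KO replicate 3, which had the highest sum among KO libraries (3821.2). The percentages within each genotype are given with all libraries only.

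The remaining 5 members did not pass the test over both genotypes. Their differences were -0.19 ± 0.11 for Gstm5 (limma adjusted p = 0.212), 0.21 ± 0.16 for Mgst1 (0.320), 0.12 ± 0.10 for Gstt1 (0.344), 0.11 ± 0.12 for Gstk1 (0.507) and 0.04 ± 0.06 for Gstm1 (0.604). Gstm1, the most abundant member, was nearly level, with 3515.5 to 4460.0 normalized counts at P25 and 3810.5 to 4419.5 at P60. The abundant Gstm5 ranged from 2487.0 to 4658.9 at P25 and from 2640.3 to 2777.8 at P60, so that its adult libraries were the tightest of any member. Gstm5 was below the threshold (adjusted p = 0.0266) in 1 of its 20 alternative analyses, that without P25-WT replicate 3. Over the 20, its difference ranged from -0.28 to -0.05, and its highest adjusted p (0.385) was without P25-WT replicate 2.

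**Figure D4:**
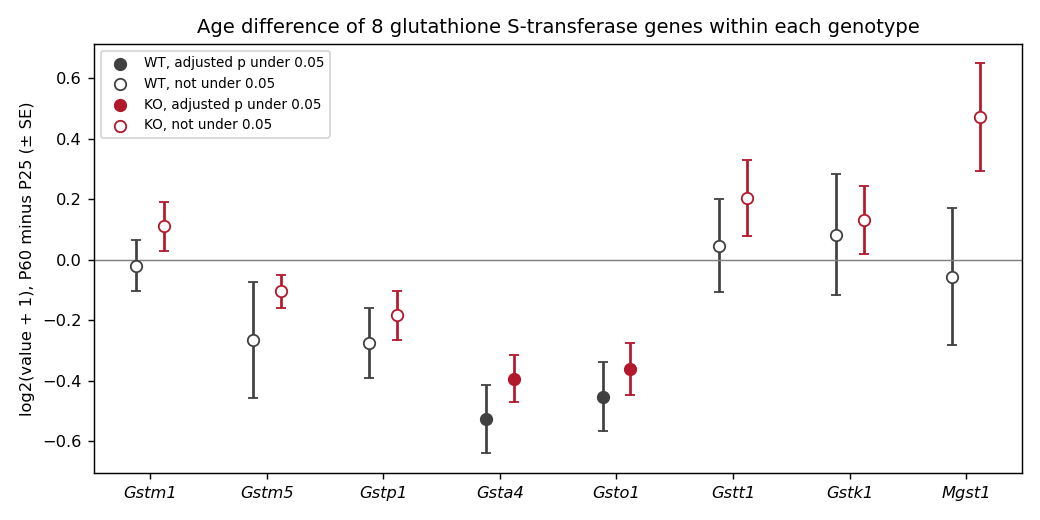
Difference between P60 and P25 on the log2(value + 1) scale (± SE, limma) for 8 members within WT (grey) and within KO (red), with filled points where the adjusted p was under 0.05. Gsta4 and Gsto1 are lower at P60 in both genotypes (WT -0.53 and -0.45, KO -0.39 and -0.36).

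The ages were also compared within each genotype, in libraries that the genotypes do not share. In WT, 2 of 8 members were DEGs, where 8.65% of all 17581 genes tested were, and in KO 2 of 8 were, where 20.7% of all 17596 genes were. They were Gsta4 and Gsto1 in both genotypes. In WT neither was a DEG with no intensity trend, or once P25-WT replicate 1 or any P60-WT library was left out. Gsto1 was also not a DEG in WT at a common total. In KO Gsto1 was not a DEG with no intensity trend, without P25-KO replicate 2 or without replicate 3 of either age. Of 15 alternatives, the call held in WT in 10 for Gsta4 and 9 for Gsto1, and in KO in 15 and 11. The direction was the same in both genotypes for 6 of 8 members, all but Gstm1 and Mgst1. Among the 6, the WT difference changed sign in some alternatives for Gstt1 (-0.058 to 0.17) and Gstk1 (-0.073 to 0.29). Whether the age difference of any member differed between genotypes was not tested.

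Mgst1 differed by 0.47 ± 0.18 in KO (adjusted p = 0.0864) and by -0.06 ± 0.23 in WT (adjusted p = 0.892), where leaving out replicate 2 of either age turned the sign. Its adult values were 204.1, 160.2 and 212.4 in KO and 167.6, 160.2 and 217.9 in WT, much alike. Gstm1 differed by 0.11 ± 0.08 in KO and by -0.02 ± 0.08 in WT, the latter 0.03 at a common total. In KO, the adult and juvenile libraries did not overlap for Gsta4, Gsto1 and Gstm5 (lower) and Gstk1 (higher), 4 of the 8, where 39.4% of all genes did not overlap. In WT, 2 of 8 did not overlap, Gsta4 and Gsto1, where 36% of all genes did not. Splitting the calls by direction, 644 genes were higher and 877 lower in WT (991 and 681 at a common total), and 1649 and 1992 in KO (2108 and 1620).

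Cell-type markers moved with age in the same libraries. Of 10 oligodendrocyte markers such as Mbp, 9 were lower at P60 (median difference -1.26), with a summed level of 403078 to 522184 normalized counts at P25 and 197580 to 225508 at P60. Of 10 astrocyte markers such as Aqp4, 6 were lower (median -0.21), with sums of 143202 to 159634 and 121304 to 134877, and none of the markers of either list was at 0 in any library. Of 6 neuronal markers, 3 were higher and 1 lower, with sums of 155765 to 166218 at P25 and 164092 to 173173 at P60. Of 4 oligodendrocyte precursor markers, 3 were lower (median -0.50), with sums of 7339 to 10030 and 4688 to 5316. Of 5 choroid plexus markers 3 were higher (median 0.32), of 7 microglia markers 2 were lower, and of 6 endothelial markers 1 was higher. All 3 blood markers, among them the globin gene Hbb-bs, were lower at P60 (summed level 13049 to 27394 at P25 and 3670 to 4368 at P60). In bulk tissue, fewer cells of a type and less RNA per cell cannot be told apart, and the part of these shifts in the members' age differences was not tested.

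The list of other transferases had 14 of 20 genes in the data. At P60, 2 were higher and 2 lower than at P25, with a median difference of 0.00. Only 1 was lower without replicate 3 of P25-KO or of P60-KO. Gsta3, an alpha-class enzyme that also isomerises steroids, rose by 0.90 ± 0.21 (limma adjusted p = 0.00524), from between 11.0 and 20.9 to between 25.6 and 40.9 normalized counts, with no overlap. Hpgds, the hematopoietic prostaglandin D synthase and a sigma-class transferase, rose by 0.49 ± 0.12 (adjusted p = 0.00682). Mgst3, a microsomal transferase, fell by 0.54 ± 0.12 (adjusted p = 0.00457), and Ltc4s, leukotriene C4 synthase, fell by 0.40 ± 0.13 (adjusted p = 0.0243).

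Hpgds had 252.3, 256.0 and 338.3 normalized counts in P60-WT but 166.5, 202.0 and 176.6 in P60-KO, close to the 128.3 to 198.1 of the juvenile libraries. All adult KO values were below all adult WT values, as for 4 of the 98 genes of the 6 lists tested at P60, while 5 were all higher, together near the 7.79% of all genes. The gene was picked out after its values were seen. The P60 genotype difference was -0.62 ± 0.14 and did not pass the test over all genes (adjusted p = 1.0).

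Across 6 lists of genes of glutathione chemistry, 97 genes were tested between the ages, and 11 were higher and 28 lower at P60, or 40.2% called beside 35.9% of all genes. No gene of these lists was a DEG between genotypes at P25 (0 of 97, none with an unadjusted p under 0.05) or at P60 (0 of 98, with 3 at an unadjusted p under 0.05, where 0.00568% of all 17610 genes tested were DEGs and 440 had an unadjusted p under 0.05). The lists rested on the same P25 and P60 libraries as the members. P25-WT replicate 2 was the highest juvenile library for 30.9% of all genes. In the lists it was highest for 6 of 14 other transferases, 9 of 21 genes of synthesis and recycling and 3 of 13 of export. The same held for 9 of 19 Nrf2 genes and 9 of 11 other glutathione-linked proteins. Of the genes named as lower in these lists, Mgst3, Ltc4s, Gss, Idh1, Taldo1, Ftl1, Clic4 and Esd were among them, and Pgd, Slc3a2 and Keap1 were not.

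Of 20 glutathione peroxidases, peroxiredoxins, glutaredoxins and thioredoxins, 12 were lower at P60 and 0 higher, with a median of -0.29. At a common total, 11 were lower and 2 higher. Gpx7, a peroxidase of the endoplasmic reticulum, fell by 0.83 ± 0.15 (adjusted p = 0.00112), Txnrd2, mitochondrial thioredoxin reductase, fell by 0.52 ± 0.10 (adjusted p = 0.00204), Glrx5, a mitochondrial glutaredoxin, fell by 0.44 ± 0.10 (adjusted p = 0.00357), and Prdx4, a peroxiredoxin of the same compartment as Gpx7, fell by 0.47 ± 0.11 (adjusted p = 0.00429). Gpx4, which reduces lipid hydroperoxides in membranes, was between 5934 and 11946 normalized counts at P25 and between 5011 and 5749 at P60. P25-WT replicate 2 was the highest juvenile library for 19 of these 20 genes, Gpx4 included. Without it, 12 genes were lower at P60 and 1 was higher, and without P60-WT replicate 2 the counts were 11 and 2.

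Of 21 genes of glutathione synthesis and recycling, 6 were lower and 3 higher, with a median of -0.10. Only 1 was higher without P25-KO replicate 3 or without P60-KO replicate 1. Gss, glutathione synthetase, which makes glutathione in the second step, fell by 0.44 ± 0.07 (adjusted p = 0.00054), from between 741 and 959 to between 533 and 693 normalized counts, while Gclc, the catalytic subunit of the enzyme of the first step, rose by 0.16 ± 0.05 (adjusted p = 0.0166), from between 1469 and 1628 to between 1668 and 1816. Idh1 and Pgd, whose products supply NADPH, fell by 0.50 ± 0.06 (adjusted p = 8.5e-05) and by 0.31 ± 0.05 (adjusted p = 0.000609), and Slc3a2, a subunit of the cystine carrier, fell by 0.31 ± 0.04 (adjusted p = 0.000137).

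Of 19 genes of the Nrf2 system, which switches on many transferases under oxidative stress, 6 were lower and 2 higher, with a median of -0.09. Nfe2l2, which encodes Nrf2, rose by 0.23 ± 0.06 (adjusted p = 0.0140), and Keap1, its inhibitor, fell by 0.18 ± 0.05 (adjusted p = 0.00803). Taldo1 (adjusted p = 0.000226) and Ftl1 (adjusted p = 0.000956), which encode transaldolase and the ferritin light chain, each fell by 0.50. Aox1, aldehyde oxidase, rose by 0.68 ± 0.09 (adjusted p = 0.000117).

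Of 12 genes of conjugate export and processing, 2 were higher and 0 lower, with a median of 0.02. Abcc5, an export pump, rose by 0.42 ± 0.09 (adjusted p = 0.00362). Of 11 other glutathione-linked proteins, a mixed list that also holds Mapk8, a kinase bound by the pi-class transferase that does not itself use glutathione, 2 were higher and 2 lower, or 3 and 1 at a common total, with a median of -0.14. These counts depended on single libraries, with 6 lower without P25-WT replicate 3 and 1 lower without P25-KO replicate 3, P60-KO replicate 1 or 2, or P60-WT replicate 1 or 3 (the last also with 1 higher). Clic4 (-0.28) and Esd (-0.24) fell, and Gdap1 (0.18) and Mapk8 (0.15) rose.

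**Figure D5:**
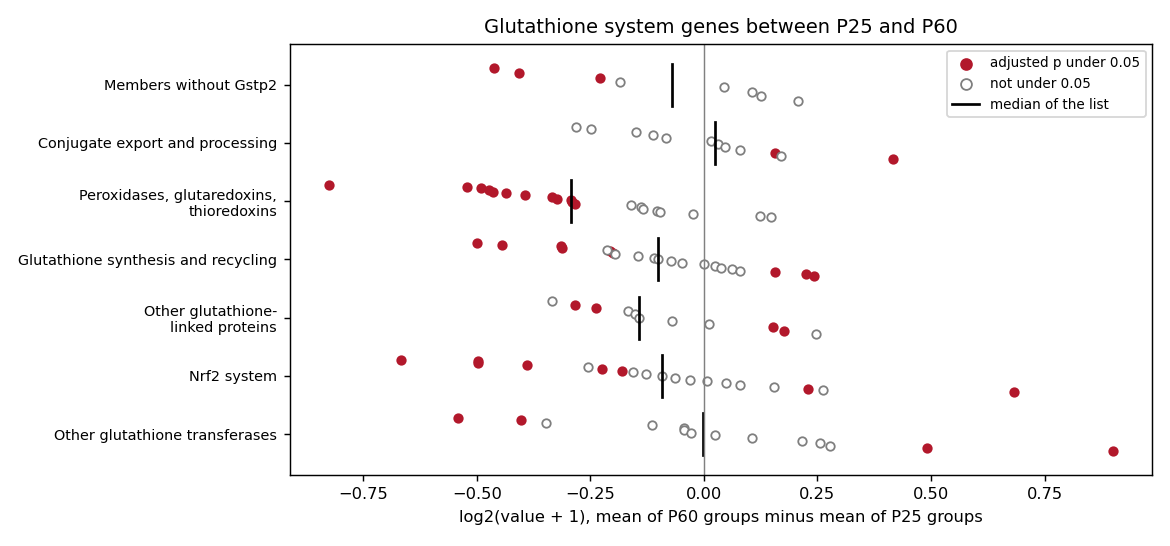
Difference between P60 and P25 over both genotypes on the log2(value + 1) scale for the 8 members without Gstp2 and for 6 lists of genes, with a point per gene, red where the adjusted p was under 0.05, and the list's median as a vertical line. The list of peroxidases, glutaredoxins and thioredoxins lies furthest to the lower side, with a median of -0.29 beside -0.07 for the members.

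The genes whose values most resembled those of Gstp2 over the 12 libraries were Snai3, Cldn2, Lamb3, Hmox1 and Gm12070, with Pearson correlations of log2(value + 1) of 0.862, 0.838, 0.832, 0.812 and 0.802 among 17593 genes. These points share libraries and were sought after the pattern of Gstp2 was known, so they are a description. Lamb3, a laminin chain, ranged from 91.0 to 121 normalized counts in P60-KO and from 33.7 to 44.4 in P60-WT, and Hmox1, a heme oxygenase, from 122 to 135 and from 89.1 to 125. Both had juvenile values that overlapped between genotypes.

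The genes most like Gstp1 were Rpl36, Gpr180, Rps21, S100a1 and Dtnbp1, with correlations between 0.980 and 0.984, and none of these is in the other list. Without P25-WT replicate 2 their correlations with Gstp1 were between 0.957 and 0.974. Rps21, a ribosomal protein, ranged from 2954 to 6053 normalized counts in P25-WT, or to 3438 without that replicate, and from 2534 to 2972 in P60-WT.

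Over the 8 members without Gstp2, the median coefficient of variation was 17.0% in P25-WT, 9.41% in P25-KO, 4.76% in P60-KO and 5.20% in P60-WT. Without replicate 2, the median in P25-WT was 7.28% over the 2 libraries left. For Gstp2 it ranged from 39% to 66%. It was set beside 3359 genes with a mean between 10 and 50, taken alike for every group. Its coefficient was above that of 95.1% of them in P25-KO, 85.0% in P25-WT, 79.3% in P60-KO and 77.8% in P60-WT. The mean of Gstp2 over the 12 libraries (26.7) lies in that range, while its adult group means lie outside it.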

How the data were processed

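Transcript abundance had been estimated by the authors with Salmon 1.1.0 (GC bias option on), summarised per gene through tximport and put on a common scale in DESeq2, per the labels and the published methods. The deposited values are this signal, normalized counts scaled by the authors over all libraries together, and they sum to between 30568259 and 32348554 per library. Reads of near-identical genes were divided by Salmon's own estimate, which bears on Gstp1 and Gstp2. The transcript annotation and whether counting used strand are not given in the sources used here.

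Members and lists were chosen with earlier results of these data known. Members were matched by Ensembl identifier, since human symbols do not keep Gstp1 and Gstp2 apart. Groups and replicate numbers came from the sample titles. Symbols, positions and transcripts came from GENCODE M21 (GRCm38), in which 19252 of 19268 identifiers were found, and promoters from RefSeq.

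Genes with a mean of at least 10 were tested with limma 3.58.1 in R 4.3.3 (intensity trend) on log2(value + 1), with Benjamini-Hochberg adjustment over all genes tested and a threshold of 0.05. Each comparison used only the libraries of its groups. Over both genotypes, the age difference was the mean of the differences within KO and within WT. The study's count test was not run, since the values were not whole: at the best unit, 6.88% to 13.8% of a library's values under 20 lay within 0.02 of a whole multiple. The sum of Gstp1 and Gstp2 was compared by an exact permutation test. The procedure was tested on simulated data. The alternatives tried were another pseudocount, minimum mean, scaling or variance trend, a fit without 1 library or with all of them, and the replicate number as a block.

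Named genes were the members, the other transferases, up to 4 genes per direction of each other list with the smallest adjusted p under 0.05, Shank3, the 10 genes nearest to Gstp2, and the 5 most correlated with Gstp1 and with Gstp2. Gpx4 and Keap1 were named after their values were seen, and Hpgds was described at P60 in the same way. Some genes of the lists are not reported here by name.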

Additional observations from a re-analysis of the deposited data

Results flagged for a closer look

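The age difference of Gstp2 went opposite ways in the genotypes. Every P60-KO library was above the P25-KO mean, with a ratio of means of 2.72. The KO groups overlapped, though, with 31.7 normalized counts in P60-KO replicate 2 and 35.2 in P25-KO replicate 2. Every P60-WT library was below all P25-WT libraries, with a ratio of 0.203. The difference between the genotypes was not tested, since the members were chosen with these P60 libraries in view.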

How the results depend on the processing

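The age calls of Gsta4 and Gsto1 over both genotypes held under every alternative run, and no alternative called a member between genotypes at P25. Within WT, the count of members called with age was 1 with libraries brought to a common total and 0 with no intensity trend, and it ranged from 0 to 3 when 1 library was left out. Within KO it was 1 with no intensity trend and ranged from 1 to 2 when 1 library was left out. For the sum of Gstp1 and Gstp2, the log2 age difference ranged from -0.28 to -0.16 with 1 library left out. With the replicate number as a block it was -0.22 and p was 0.0625 by the exact permutation test, whose smallest p was then 0.03125. The block changed no other call of a member. Correlations of same-numbered deviations were from -0.07 to 0.17, and only between the genotypes at P60 were all of them positive. With the block, the genes at an unadjusted limma p under 0.05 between genotypes went from 440 to 1017 at P60 and from 238 to 213 at P25. Whether the replicate numbers pair the libraries is not settled by these values.

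Several differences that did not pass the test changed sign. Leaving out 1 library at P25, the KO and WT difference ranged from -0.19 to 0.051 for Gstp1, from -0.75 to 0.31 for Gstp2, from -0.34 to 0.11 for Gstm5, from -0.21 to 0.15 for Gstk1 and from -0.14 to 0.028 for Gsto1. Within WT, the age difference ranged from -0.083 to 0.052 for Gstm1, from -0.058 to 0.17 for Gstt1, from -0.073 to 0.29 for Gstk1 and from -0.22 to 0.20 for Mgst1, and that of Gstm1 was 0.030 at a common total. Gstp2 gave no WT age value without P25-WT replicate 1, where its mean fell under the minimum of 10. Of 714 recomputed values of single members, 672 were counted as unchanged, 23 lost the call, 3 gained it and 16 changed sign. The cause was not tested. For tested differences, unchanged meant the same direction and side of the threshold. For untested ones (all P60 genotype differences, and the age differences of Gstp2) it meant a shift smaller than the gene's SD within groups. Sign changes among the untested ones were not counted. Over all genes, DEGs ranged from 5134 to 6747 with age over both genotypes (6323 as reported), from 122 to 3442 within WT (1521), from 1725 to 3728 within KO (3641), from 0 to 8 between genotypes at P25 (1) and from 0 to 3 at P60 (1). The median coefficient of variation of the members in P25-WT and the correlations without P25-WT replicate 2 were added after seeing the data.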
